A study of Mus musculus with 32 samples.

Results

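The enzymes that make foreign and fat-soluble compounds easier to excrete were measured in the lungs of newborn mice as 4 gene families: the cytochromes P450 (Cyp), the glutathione S-transferases (Gst), the UDP-glucuronosyltransferases (Ugt) and the sulfotransferases (Sult). Array probes were taken by gene name, leaving out the retinoic acid hydroxylases Cyp26a1, Cyp26b1 and Cyp26c1, the sterol demethylase Cyp51 and the club cell gene Cyp2f2. The names matched 191 probes of 145 genes, and 118 probes of 95 genes were kept, out of 39162 mouse probes kept by the same filter. A probe was kept when 1 or more groups had it well above background, as the scanner software judged it, in each of their 4 lungs. Of the 73 probes left out, 29 were well above background on no array, and among the 50 genes with no kept probe were the liver enzymes Cyp1a2, Cyp7a1 and Cyp8b1 and the estrogen sulfotransferase Sult1e1. The filter left 6 probes that passed in exactly 1 group and turned away 3 that reached 3 of 4 arrays in a group.

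The lungs came from newborn C57BL/6J pups of both sexes in 8 groups of 4 mice. Pups were killed at post-natal day (P)5 or P14, after breathing either 21% O2 (room air) or 85% O2 from birth, the latter being the hyperoxia that is used to model bronchopulmonary dysplasia. Every pup, the controls included, had received an inhibitory oligonucleotide into the peritoneum, either antagomiR-scrambled (SCR) or antagomiR-34a (A34a), which blocks the microRNA miR-34a. Nursing dams moved between both atmospheres, and whole lungs were profiled, so that fewer cells of a type and less RNA per cell cannot be told apart. Values below are log2 processed signals relative to the 75th percentile of each array, and a difference is the mean in 85% O2 minus that in 21% O2 unless stated otherwise. A probe was called at an adjusted p under 0.05 in a limma fit over all probes tested, with Benjamini-Hochberg adjustment. The p-values measure the spread between these mice, 4 to a group.

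Each slide held 8 arrays of 1 age and 1 oxygen level, with SCR in the upper row and A34a in the lower row. Oxygen level and age can therefore not be told apart from slide, nor the oligonucleotide from array row. Between 33607 and 40776 probes per array were well above background. All 10 type II pneumocyte markers were well above background on every array of all groups. At P14 in 21% O2, SCR replicate 4 and A34a replicate 1 stood apart from their groups, as described beside the oligonucleotide comparison. Skeletal muscle markers were high on P5 SCR replicate 4 in 21% O2 (list mean 1.27, against −4.05 at the lowest array of that group), liver markers on P5 A34a replicate 3 in 85% O2 (1.68, against −5.44), and adipocyte markers on P14 A34a replicate 4 in 85% O2 (−2.23, against −5.64).

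Cytochromes P450 are haem enzymes that insert an oxygen atom into their substrates with electrons from NADPH, often the opening step in the clearance of a drug or pollutant. The transferases of the other families attach glutathione, glucuronic acid or sulfate to the product, which makes it soluble. Glutathione S-transferases also remove aldehydes formed when oxygen attacks membrane lipids. In the airway, club cells are known for a high content of these enzymes. Transcription of many members is known to be driven by the oxidant-sensing factor NRF2 through the antioxidant response element or by the aryl hydrocarbon receptor (AHR) through the xenobiotic response element.

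The sequences before the start sites of 5 members on which the results turn are shown from RefSeq (GRCm38.p6), each as 250 bases in the direction of transcription. Capitals mark matches on either strand to TGACNNNGC (the antioxidant response element core), GCGTG (the xenobiotic response element core) or TATAAA (a core promoter element), and no matches overlapped in these stretches. They lie at chr9:78347146-78347395 on the minus strand (Gsta2), chr1:21240335-21240584 on the plus strand (Gsta3), chr19:4037913-4038162 on the minus strand (Gstp1), chr7:140763569-140763818 on the plus strand (Cyp2e1) and chr9:57697363-57697612 on the plus strand (Cyp1a1). Gsta2, Gsta3 and Gstp1 are shown because they were higher in 85% O2 at both ages. Cyp2e1 is shown because it had the largest oxygen difference at P14, and Cyp1a1 because it is the textbook target of the AHR.
Gsta2: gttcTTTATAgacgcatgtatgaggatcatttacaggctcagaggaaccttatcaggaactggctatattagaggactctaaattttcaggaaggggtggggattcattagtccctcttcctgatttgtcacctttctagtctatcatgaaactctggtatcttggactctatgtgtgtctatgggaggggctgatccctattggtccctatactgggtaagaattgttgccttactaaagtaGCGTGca
Gsta3: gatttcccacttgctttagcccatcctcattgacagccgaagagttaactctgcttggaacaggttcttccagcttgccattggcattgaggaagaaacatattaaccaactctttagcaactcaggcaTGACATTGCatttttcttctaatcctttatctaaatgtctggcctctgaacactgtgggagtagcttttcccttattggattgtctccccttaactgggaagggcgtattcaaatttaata
Gstp1: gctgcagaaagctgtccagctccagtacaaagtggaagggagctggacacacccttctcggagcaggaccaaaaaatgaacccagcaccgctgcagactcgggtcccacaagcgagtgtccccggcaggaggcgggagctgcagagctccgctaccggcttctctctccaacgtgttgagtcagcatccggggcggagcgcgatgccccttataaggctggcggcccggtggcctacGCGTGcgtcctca
Cyp2e1: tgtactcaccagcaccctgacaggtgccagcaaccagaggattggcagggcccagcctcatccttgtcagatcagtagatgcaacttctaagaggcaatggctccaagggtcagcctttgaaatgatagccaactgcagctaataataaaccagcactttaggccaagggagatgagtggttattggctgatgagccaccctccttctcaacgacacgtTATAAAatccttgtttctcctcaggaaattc
Cyp1a1: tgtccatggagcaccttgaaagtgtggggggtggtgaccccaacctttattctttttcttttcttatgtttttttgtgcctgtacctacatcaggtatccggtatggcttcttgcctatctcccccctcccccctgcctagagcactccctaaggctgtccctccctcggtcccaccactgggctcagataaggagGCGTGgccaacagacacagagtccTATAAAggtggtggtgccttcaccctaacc

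The Gsta3 stretch held TGACNNNGC at 121 to 113 bases before the start. Gstp1 held the xenobiotic response element core at 13 to 9 bases, Gsta2 at 7 to 3 bases and Cyp1a1 at 54 to 50 bases before the start. The Gstp1 stretch also held TGAGTCAGC, which has G where TGACNNNGC has C and was therefore not marked or counted. The Gsta2 stretch also held TATAAA on the opposite strand, 246 to 241 bases before the start. A TATA box stood 31 to 26 bases before the start of Cyp2e1 and 30 to 25 bases before that of Cyp1a1. RefSeq promoters were matched for 72 of the 95 genes. Of their 86 promoters, 5 (5.81%) held TGACNNNGC, against 10.2% of all 32851 promoters; 22 (25.6%) held GCGTG, against 28.2%; and 21 (24.4%) held TATAAA, against 12.4%. The 14 genes called higher in 85% O2 at both ages had a promoter in 11 cases, with TGACNNNGC in 1, GCGTG in 5 and TATAAA in 1 gene. The 33 genes called lower at P14 had a promoter in 23 cases, with the same motifs in 3, 7 and 7. These are matches of letters in short windows, and binding was not measured.

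Exposure to 85% O2 changed members in both directions: most Gst probes rose, whereas Cyp probes were split at P5 and more of them fell than rose at P14. At P5 with SCR, 52 of 99 member probes tested were called, 34 higher and 18 lower. Of all 35982 probes tested, 43.9% were called, 17.5% as higher and 26.4% as lower. At P14 with SCR, 71 of 117 member probes were called, 29 higher and 42 lower, against 60.8% of all probes tested, 28.4% as higher and 32.4% as lower. A probe that passed the filter only in the group where it was high could hardly fail to differ, so that the counts were also taken over probes that all 4 lungs of both groups showed well above background. At P5 these were 94 member probes, of which 35.1% were higher and 17% lower, beside 18.2% and 26.1% of 33512 probes in all. At P14 they were 89 member probes, of which 30.3% were higher and 29.2% lower, beside 32.0% and 27.5% of 32484 probes in all.

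**Figure D1:**
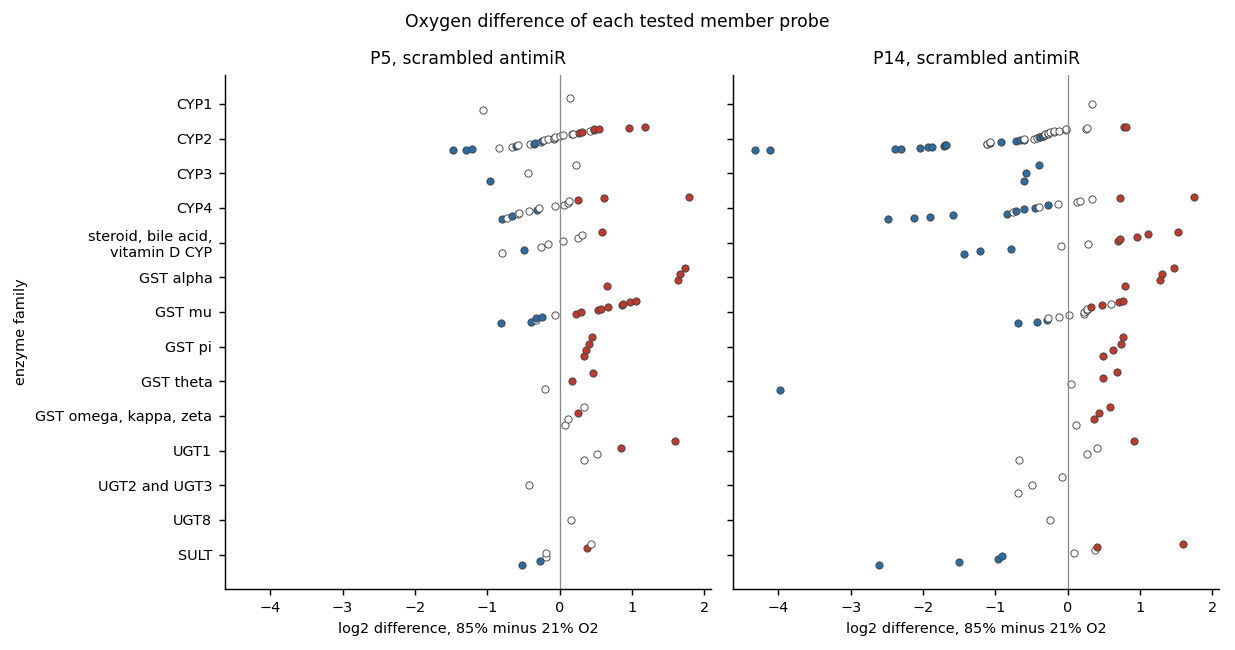
Difference between 85% and 21% O2 in SCR-treated lungs (log2, horizontal axis) of each tested member probe, by family, at P5 and P14; filled red points were called higher, filled blue points called lower, and open points not called. All probes of the alpha and pi classes of Gst lie to the right of 0 at both ages, while most Cyp2 and Cyp4 probes called at P14 lie to the left.

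Most glutathione S-transferase probes rose. At P5, 20 of 30 Gst probes were called higher and 4 lower, with a median difference of 0.35 against −0.07 over all probes tested. At P14, 17 of 31 were called higher and 4 lower, with a median of 0.43 against −0.06. Among probes measured in both groups the counts were 19 higher and 4 lower of 29 at P5, and 17 higher and 3 lower of 29 at P14. By gene, 12 of 19 genes rose and 2 fell at P5, and 11 of 20 rose and 3 fell at P14. More Gst probes were called higher than lower at both ages under each scaling of the arrays that was tried.

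The alpha class, which conjugates products of lipid peroxidation, had the largest median difference of the Gst classes, 1.65 at P5 and 1.28 at P14, with all 4 probes called higher at both ages. Gsta3 (brighter probe at chr1:21255189-21255248, mm9) read 2.45, 2.19, 1.97 and 2.21 at P5 in 21% O2, and 4.09, 4.01, 3.93 and 3.72 in 85% O2. At P14 it read 2.81, 2.77, 2.83 and 2.64 in 21% O2, and 3.96, 3.98, 4.15 and 4.03 in 85% O2. All 8 SCR lungs in 85% O2 were above all 8 in 21% O2. The difference was 1.73 ± 0.10 (SE) at P5 (3.32-fold, adjusted p = 1.25e-08 by limma) and 1.27 ± 0.11 at P14 (2.40-fold, limma adjusted p = 4.05e-07).

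Gsta2 (probe at chr9:78178856-78178915, mm9), a close relative of Gsta3, read −1.20, −1.31, −1.47 and −0.72 at P5 in 21% O2, and 0.73, 0.64, 0.39 and 0.23 in 85% O2. At P14 it read −0.97, −1.07, −0.98 and −1.13 in 21% O2, and 0.36, 0.16, 0.65 and 0.55 in 85% O2. Again the groups did not overlap at either age. The difference was 1.67 ± 0.14 at P5 (adjusted p = 8.44e-07 by limma) and 1.47 ± 0.11 at P14 (limma adjusted p = 2.01e-07). Gsta4, the class member best known for conjugating hydroxynonenal, differed by 0.65 ± 0.16 at P5 (adjusted p = 0.00426 by limma) and by 0.79 ± 0.12 at P14 (limma adjusted p = 7.55e-05). Its P5 groups overlapped, since SCR replicate 4 in 21% O2, the lung with muscle transcripts, read 0.65, and without it the difference was 0.86. Replicates 1 and 4 of that group also had the highest club cell (3.68 and 3.58, against 2.65 and 2.19) and ciliated cell markers (1.54 and 1.44, against 0.79 and 0.64). With all lungs, Welch's test did not call Gsta4 at P5.

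The pi class, which conjugates small electrophiles such as acrolein, rose on all 4 probes at both ages. Gstp1 read 2.54, 2.53, 2.57 and 2.33 at P5 in 21% O2, and 2.63, 3.00, 2.94 and 2.98 in 85% O2. At P14 the values were 2.57, 2.43, 2.50 and 2.18 in 21% O2, and 3.29, 3.16, 3.10 and 3.14 in 85% O2. The groups stood apart at both ages, narrowly at P5. The difference was 0.40 ± 0.08 at P5 (adjusted p = 0.00192 by limma) and 0.76 ± 0.09 at P14 (limma adjusted p = 1.01e-05). The neighbouring gene Gstp2 differed by 0.34 and 0.74 on its brighter probe, but these paralogs are near copies of each other and their probes may not tell them apart.

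The mu class was mixed. At P5, 9 of its 15 probes were called higher and 4 lower, beside 17.5% and 26.4% of all probes tested. At P14, 4 were higher and 3 lower, beside 28.4% and 32.4% of all probes, so that neither P14 count is above the share of all probes. Gstm1 read 3.12, 3.07, 2.92 and 3.21 at P5 in 21% O2, and 3.92, 4.10, 4.00 and 3.83 in 85% O2, with no overlap. The difference of 0.88 ± 0.07 (adjusted p = 6.11e-07 by limma) at P5 compared with 0.23 ± 0.12 at P14 (limma adjusted p = 0.118). In 21% O2, Gstm1 itself had risen by 0.43 between the ages. The brighter Gstm1 probe is placed on chromosome 5 by the array file and the other on chromosome 3, and mu class genes are alike in sequence, so that the values belong to these probes rather than to 1 gene with certainty. Gstm4 differed by 1.06 ± 0.10 at P5, Gstm3 by 0.57 ± 0.11, and Gstm6 by −0.32 ± 0.08, all called. At P14 the brighter Gstm3 probe was called in the opposite direction (−0.29 ± 0.11, limma adjusted p = 0.0303). The array file places that probe on chromosome 10 and the other Gstm3 probe on chromosome 3, so that its values carry the same limit as those of Gstm1.

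Gsto1, the omega class enzyme that also reduces dehydroascorbate, differed by 0.34 ± 0.44 at P5 (adjusted p = 0.559 by limma). That result hung on a single lung: SCR replicate 4 in 21% O2 read 6.31, while the other replicates read 4.07, 3.48 and 3.45. Without it the difference was 1.00, with a limma adjusted p of 7.23e-05. At P14 Gsto1 was higher by 0.59 ± 0.14 (limma adjusted p = 0.0028), or by 0.38 with quantile normalization and 0.37 with the authors' values. Gstt1, the theta class enzyme that is deleted in many people, differed by −0.20 at P5 and 0.05 at P14, neither called. Gstt4 of the same class was well above background only in the 2 groups kept in 21% O2 to P14, and entered the set through them. On the group means it was at least 4.61-fold lower in 85% O2 at that age, which is given as a description. With normexp background correction it differed by −0.49 on the log2 scale and was not called. The mean in 21% O2 includes SCR replicate 4, which read −2.38 against −4.64 to −4.27 in the other lungs, and the bound is smaller without it.

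**Figure D2:**
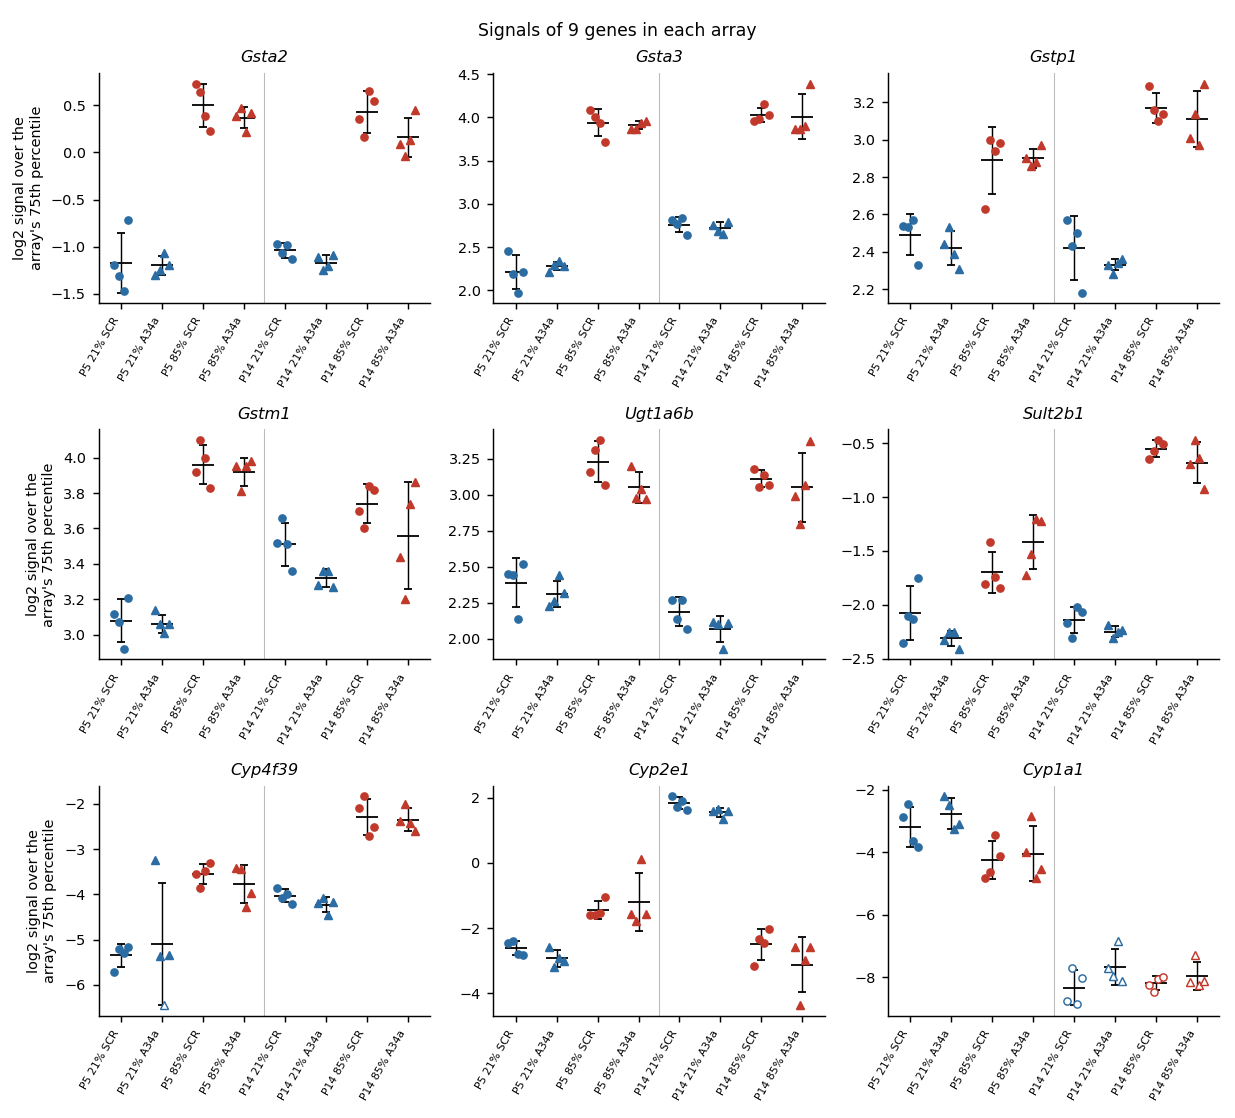
Log2 processed signal above the array's 75th percentile (vertical axis) of 9 members on each of the 32 arrays, by age and oxygen level; blue marks 21% O2 and red 85% O2, circles SCR and triangles A34a, open symbols a probe not well above background, and bars the mean ± SD of 4 mice. Gsta3 separates by oxygen level at both ages, Cyp2e1 is high only at P14 in 21% O2, and Cyp1a1 is well above background only at P5.

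Among the conjugating enzymes outside the Gst family, the brighter Ugt1a6b probe and Sult2b1 rose at both ages, while Sult1a1 fell at P14. Of 11 Ugt and Sult probes measured in both groups at P5, 3 were higher (27.3%) and 2 lower (18.2%), beside 18.2% and 26.1% of all probes. At P14, 3 of 12 were higher (25%) and 2 lower (16.7%), beside 32% and 27.5%. Ugt1a6b, which glucuronidates simple phenols, was higher in 85% O2 on its brighter probe, by 0.85 ± 0.09 at P5 (adjusted p = 9.4e-06 by limma) and by 0.92 ± 0.10 at P14 (limma adjusted p = 4.47e-06). Its P14 values were 2.27, 2.14, 2.27 and 2.07 in 21% O2, and 3.18, 3.05, 3.14 and 3.07 in 85% O2. Thus each exposed lung exceeded each lung in room air. The dimmer Ugt1a6b probe differed by 1.60 at P5 but by 0.41 at P14 (limma adjusted p = 0.0955), and Ugt1a6a by 0.34 at P5 and −0.67 at P14, neither called. The array file places the brighter Ugt1a6b probe (chr1:90115493-90115552, mm9) close to that of Ugt1a6a (chr1:90116514-90116573) and away from the dimmer one (chr1:90004249-90004308). Its values therefore belong to this probe rather than to Ugt1a6b with certainty. No probe carried the gene name Ugt1a1. None of the 3 probes of the Ugt2 and Ugt3 families tested at P14 was called.

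Sult2b1, which sulfates cholesterol, read −2.17, −2.31, −2.02 and −2.07 at P14 in 21% O2, and −0.65, −0.57, −0.47 and −0.51 in 85% O2. The 2 groups were far apart next to their spread. The difference was 1.59 ± 0.09 at P14 (limma adjusted p = 1.36e-08), beside 0.38 ± 0.14 at P5 (adjusted p = 0.0384 by limma). Sult1a1, the general phenol sulfotransferase, read 2.82, 2.68, 2.81 and 2.78 at P14 in 21% O2, and 1.78, 2.05, 1.92 and 1.70 in 85% O2. All exposed lungs were lower, by 0.91 ± 0.11 on the log2 scale (−0.91, limma adjusted p = 1.2e-05). The P5 difference on the same probe was −0.19 ± 0.08 (limma adjusted p = 0.052). Sult1d1, which acts on catecholamines, was well above background on 4 of 4 arrays at P14 in 21% O2 and on 1 of 4 in 85% O2, and differed by −2.61 ± 0.76 (−0.35 with normexp correction). It too passed the filter only in the P14 groups in 21% O2, so that this difference is a description.

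The cytochromes P450 did not share a direction at P5 and fell on balance at P14. At P5, 11 of 57 Cyp probes were called higher and 12 lower, with a median difference of −0.16. At P14, 9 of 70 were called higher and 34 lower, with a median of −0.41. Over the 48 Cyp probes well above background in both P14 groups, 7 were higher and 21 (43.8%) lower, with a median of −0.30 against 0.03 over all probes so measured. The size of this shift varied with the processing: with normexp background correction of the P14 arrays, 10 Cyp probes were higher and 12 lower with a median of 0.01, and with quantile normalization 11 were higher and 24 lower with a median of −0.21. Over all members the share of calls that were higher was 40.8% at P14, against 68.8% with normexp correction and 54% with quantile normalization, and normexp correction moved the median of all probes by 0.17.

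Among the Cyp2 probes well above background in both P14 groups, 11 of 26 (42.3%) were called lower and 2 higher, and among the Cyp4 probes 5 of 11 (45.5%) lower and 2 higher, beside 27.5% lower over all probes so measured. Over every tested probe, dim ones included, 19 of 39 Cyp2 and 9 of 17 Cyp4 probes were lower, but with normexp correction 8 and 2 were, beside 3 and 2 higher. All 3 Cyp3 probes were called lower. Of the steroid, bile acid and vitamin D hydroxylases, 5 of 10 probes were higher and 3 lower, or 3 higher and 2 lower of the 7 measured in both groups, too few to set against the shares over all probes.

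Cyp2e1, which oxidises ethanol, acetaminophen and small solvents, had the largest difference of any member gene at P14 and turned direction with age. Its brighter probe read −2.45, −2.41, −2.81 and −2.82 at P5 in 21% O2, and −1.60, −1.60, −1.53 and −1.04 in 85% O2. At P14 it read 2.05, 1.73, 1.91 and 1.61 in 21% O2, and −3.17, −2.33, −2.45 and −2.04 in 85% O2. The 4 room-air lungs at P14 were thus the highest of the SCR lungs by a wide margin, and at P5 the order of the oxygen levels was the reverse. The difference was 1.18 ± 0.32 at P5 (adjusted p = 0.00879 by limma) and −4.32 ± 0.33 at P14 (limma adjusted p = 1.77e-07), and the dimmer probe gave 0.96 and −4.11, the latter 17.3-fold lower. The age by oxygen interaction was −5.50 ± 0.48 (limma adjusted p = 7.7e-09).

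Adipocyte transcripts moved with Cyp2e1 at P14. The mean of 8 adipocyte markers ranged from −1.71 to 0.30 over the SCR lungs in 21% O2 and from −5.87 to −5.49 in 85% O2, with 7 of 8 and 2 of 8 markers well above background on all 4 arrays. Within the SCR lungs in 21% O2, Cfd (adipsin) read 3.49, 0.68, 0.55 and 0.30, while Cyp2e1 kept within 1.61 to 2.05. Its highest value was on the lung with the highest Cfd and its lowest on that with the lowest. In the A34a lungs in 85% O2, replicate 4 had Cfd at 0.19 against −8.21, −8.05 and −7.40, and its Cyp2e1 of −2.59 equalled the highest of the other replicates, which ranged from −4.37 to −2.59. Liver markers, another tissue rich in Cyp2e1, ranged from −4.62 to −1.82 in 21% O2 and from −5.68 to −5.58 in 85% O2 over the P14 SCR lungs. The part of adipose or liver tissue in the Cyp2e1 difference was not tested.

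**Figure D3:**
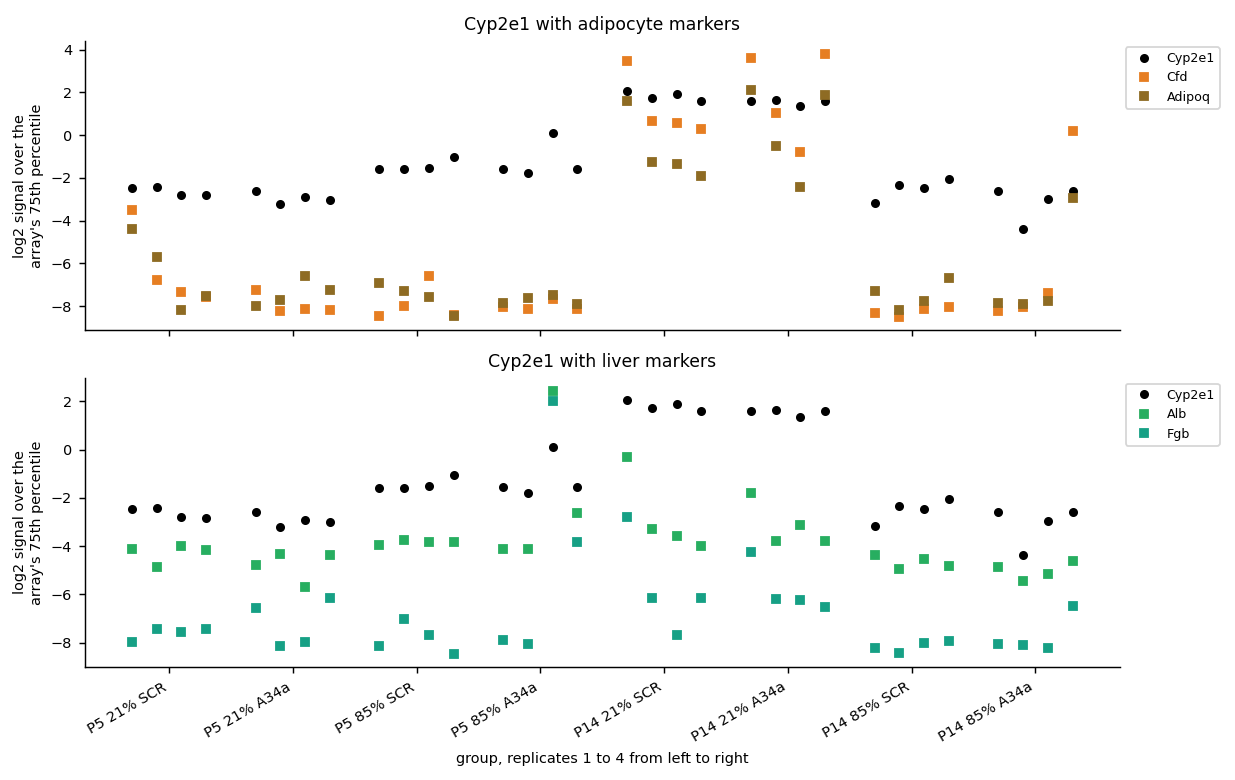
Cyp2e1 (brighter probe) with the adipocyte genes Cfd and Adipoq and with the liver genes Alb and Fgb on each array, as log2 processed signal above the array's 75th percentile (vertical axis), by group and replicate (horizontal axis). Cyp2e1 and the adipocyte genes are high together in the P14 lungs kept in 21% O2, and P5 A34a replicate 3 in 85% O2 has the highest liver genes together with the highest Cyp2e1 of its group.

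Other cytochromes were lower at P14 as well. Cyp2c44, an arachidonic acid epoxygenase named Cyp2c23 in RefSeq, read −1.81, −1.99, −1.99 and −1.52 at P14 in 21% O2, and −4.15, −4.30, −4.41 and −4.01 in 85% O2. It fell in every exposed lung, by 2.39 ± 0.35 on the log2 scale (limma adjusted p = 6.08e-05), or by 1.26 (−1.26) with normexp correction. Further members passed the filter only in groups kept in 21% O2 and were well above background on no exposed SCR array at P14, so that their differences are a description. Cyp4f14, which inactivates leukotriene B, was at least 2.76-fold lower in 85% O2 and Cyp4a12a, which hydroxylates arachidonic acid, at least 1.86-fold lower. For Cyp4a12b, Cyp2d13, Cyp2ab1 and Cyp2c29 the bounds were 2.54, 2.28, 1.68 and 1.49-fold. These bounds set the mean in 21% O2 against the lowest signal that passes as well above background in 85% O2. Under normexp correction Cyp4f14, Cyp4a12a, Cyp4a12b, Cyp2d13, Cyp2ab1, Gstt4 and Sult1d1 were not called, and Cyp2c29 differed by 0.09.

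Over the 8 group means, the member genes most like Cyp2e1 were Cyp2d12 (Pearson r = 0.981), Cyp4f14 (0.939), Gstt4 (0.926), Cyp4f18 (0.893) and Cyp2c29 (0.891). The means share slides and ages, and Cyp4f14, Gstt4 and Cyp2c29 passed the filter only at P14 in 21% O2, where Cyp2e1 is also high, so these correlations are a description. Of the members, 13.6% were well above background on all 4 arrays only in P14 groups in 21% O2, beside 7.07% of all tested probes.

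Few Cyp genes were higher at P14. They numbered 9 of 61, and over probes measured in both groups 14.6% of Cyp probes were higher against 32.0% of all. Cyp4f39, which hydroxylates the very long fatty acids of barrier ceramides, read −5.71, −5.20, −5.30 and −5.17 at P5 in 21% O2, and −3.56, −3.86, −3.49 and −3.30 in 85% O2. At P14 it read −3.87, −4.08, −3.99 and −4.21 in 21% O2, and −2.10, −1.83, −2.71 and −2.52 in 85% O2. At each age all lungs in 85% O2 were above those in 21% O2. The difference was 1.79 ± 0.47 (0.82 with normexp correction, adjusted p = 0.00713 by limma without it) at P5 and 1.75 ± 0.17 (limma adjusted p = 1.83e-06) at P14.

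Cyp7b1, the oxysterol hydroxylase of the alternative bile acid route, read −0.94, −0.91, −0.95 and −1.04 at P14 in 21% O2, and 0.71, 0.38, 0.60 and 0.56 in 85% O2. The groups were separate, with a difference of 1.52 ± 0.16 (limma adjusted p = 2.59e-06), beside 0.31 ± 0.16 at P5 (adjusted p = 0.125 by limma). The steroid hydroxylase Cyp21a1 was higher by 1.11 ± 0.14 at P14, and the side-chain cleavage enzyme Cyp11a1 by 0.95 ± 0.34 (limma adjusted p = 0.0259), the latter above background on 2 of 4 arrays in 21% O2. The call on Cyp11a1 was lost without SCR replicate 2 (0.79) or 4 (0.84) in 21% O2 or without replicate 1 (0.92) or 4 (0.90) in 85% O2, and without both P14 arrays in 21% O2 that stood apart (0.84), and its value was 0.49 with normexp correction and 1.59 with quantile normalization or the authors' values. Cyp2s1, an extrahepatic member, was higher by 0.54 ± 0.14 at P5 and 0.80 ± 0.15 at P14, the former not called by Welch's test. Cyp4b1, known for its high level in lung, was higher by 0.61 ± 0.07 at P5 (adjusted p = 1.67e-05 by limma) and differed by −0.14 ± 0.09 at P14 (limma adjusted p = 0.223).

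Members called lower at P5 included Cyp2t4 (−1.47 ± 0.18, limma adjusted p = 2.39e-05), Cyp3a13 (−0.96 ± 0.15), the pseudogene Cyp4f41-ps (−0.80 ± 0.17), Cyp2c55 (−0.60 ± 0.08), Sult4a1 (−0.52 ± 0.13), the brain cholesterol hydroxylase Cyp46a1 (−0.49 ± 0.12) and the vitamin D hydroxylase Cyp2r1 (−0.35 ± 0.09). Cyp4f41-ps was not called with normexp correction (−0.18), quantile normalization or the authors' values (−0.47 each), Sult4a1 not with quantile normalization or the authors' values (−0.27 each) or by Welch's test, and Cyp46a1 not by Welch's test. Called at smaller differences were Cyp2t4 (−0.93), Cyp3a13 (−0.57), Cyp2c55 (−0.29) and Sult4a1 (−0.33) with normexp correction, and Cyp2c55 and Cyp46a1 (−0.32 each) with quantile normalization or the authors' values. Cyp2d13 and the dim Cyp4a12b passed the filter only in groups kept in 21% O2, which makes their values a description. Cyp2d13 was at least 1.61-fold lower, being well above background on no array in 85% O2. Its call was lost without SCR replicate 4 in 85% O2 (−0.75) or without replicate 1 (−1.18) or 4 (−1.07) in 21% O2, by Welch's test, and with normexp correction (−0.24), quantile normalization or the authors' values (−0.84 each). Cyp4a12b differed by −0.66 ± 0.25 (limma adjusted p = 0.0464), a call lost on leaving out any array but SCR replicate 2 in 85% O2 (−0.71 to −0.57). Cyp2b10, the usual reporter of the receptor CAR, differed by 0.47 ± 0.17 at P5 (adjusted p = 0.0321 by limma) with overlapping groups, a call lost on leaving out any of 4 arrays (SCR replicates 1 and 2 in 85% O2, at 0.42 each, and replicates 2 and 3 in 21% O2, at 0.41 and 0.31), and by −0.02 at P14. Neither Cyp4a12b nor Cyp2b10 was called at P5 with quantile normalization, the authors' values or no filter on dim probes. Cyp4a12b was also not called with normexp correction (−0.13) or the replicate number as a block, and Cyp2b10 not with the compared groups only or by Welch's test.

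Cyp1a1 and Cyp1b1, the aryl hydrocarbon hydroxylases induced through the AHR, were not called for oxygen. Cyp1a1 (probe at chr9:57551535-57551594, mm9) read −2.87, −2.46, −3.63 and −3.84 at P5 in 21% O2, and −4.82, −4.63, −3.46 and −4.11 in 85% O2. The groups overlapped through replicate 3 in 85% O2. The difference of −1.06 ± 0.44 had a limma adjusted p of 0.0647, and the probe was called without SCR replicate 3 in 85% O2 (−1.32) and without SCR replicate 4 in 21% O2 (−1.27). At P14 Cyp1a1 was well above background on 0 of 16 arrays and was not tested for oxygen. Cyp1b1 differed by 0.14 ± 0.27 at P5 and 0.34 ± 0.24 at P14.

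Between the ages in 21% O2 with SCR, more members rose than fell. Of 118 member probes, 62 were called, 49 higher and 13 lower at P14 than at P5, against 51.4% of all probes, 27.8% as higher and 23.5% as lower. Over the 93 member probes well above background in both groups, 41.9% were higher and 10.8% lower, beside 25.0% and 25.4% of 33877 probes in all. Age coincides with slide and scan batch here.

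Cyp2e1 led the rise with a difference of 4.45 ± 0.34 (21.9-fold, limma adjusted p = 1.26e-10). Cyp27a1, the sterol hydroxylase of mitochondria, rose by 2.07 ± 0.22 (1.14 with normexp correction) and Cyp2c44 by 1.58 ± 0.28. Among members that passed the filter only in P14 groups, whose rise is therefore a description, Gstt4 was at least 4.73-fold, Cyp4f14 at least 2.98-fold, Cyp2c29 at least 1.53-fold and Cyp2c65 at least 1.23-fold higher at P14. The Gstt4 bound rests in part on P14 SCR replicate 4, which read −2.38 against −4.64 to −4.27 in the other lungs. Sult1d1 differed by 2.86 ± 0.69, Cyp4a12a by 2.45 ± 0.55 and Ugt3a1 by 1.67 ± 0.37, each well above background on all 4 arrays at P14 and on 1 of 4 at P5. With normexp correction Gstt4 (0.71), Sult1d1 (0.69) and Cyp4f14 (0.49) differed by less, Cyp4a12a (0.39), Ugt3a1 (0.33), Cyp2c65 (0.42) and Cyp2c29 (0.29) were not called, and Sult1d1 was not called by Welch's test.

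Cyp1a1 led the fall and was at least 9.51-fold lower at P14 than at P5, a description because the probe passed the filter only in the P5 groups (−1.42 on the log2 scale with normexp correction). The P14 values, −8.86 to −6.84 over all groups, were not well above background, while all 16 P5 values were. Cyp2t4 fell by 1.36 ± 0.16, Sult5a1 by 1.01 ± 0.11, Cyp3a13 by 0.66 ± 0.15, Cyp2u1 by 0.46 ± 0.13 and Gstp2 by 0.17 ± 0.05, all on the log2 scale. Cyp11a1 (−1.15) and Cyp4f41-ps (−0.74) were also called lower, on 2 of 4 and 3 of 4 arrays well above background at P14, and the latter call was lost on leaving out any of 5 arrays (P14 replicates 1 and 4, at −0.67 and −0.64, and P5 replicates 2, 3 and 4, at −0.62, −0.79 and −0.76). With normexp correction Cyp11a1 (−0.35), Cyp4f41-ps (−0.17) and Gstp2 (−0.12) were not called, and Cyp2t4 (−0.87) and Cyp3a13 (−0.36) were called at smaller differences, while Cyp4f41-ps differed by −1.20 with quantile normalization or the authors' values. Cyp2u1 and Sult4a1 each had a dimmer probe that was called the other way (0.40 and 2.27, the latter on a probe that passed only in the A34a lungs kept in 21% O2 to P14), so that neither gene has a settled direction. Over the 8 group means, Sult5a1 (Pearson r = 0.898), Gstm6 (0.809), Gstm5 (0.737), Cyp39a1 (0.727) and Cyp3a13 (0.688) were most like Cyp1a1, a description that mostly repeats the split between the ages, since the P14 means of Cyp1a1 are readings not well above background.

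The oxygen difference changed with age on 45 of 118 member probes, 18 towards higher and 27 towards lower at P14, against 40.9% of all probes. Besides Cyp2e1, Cyp2c44 (−2.23), Cyp2d22 (−1.76) and Cyp27a1 (−1.48) shifted towards lower in 85% O2, at −1.13, −0.62 and −0.63 with normexp correction. Cyp2t4 (1.74), the steroid hydroxylase Cyp17a1 (1.48) and Cyp21a1 (1.37) shifted towards higher. Gstt4, Cyp4f14 and Cyp4a12a, also past the threshold towards lower, passed the filter only at P14 in 21% O2, which leaves their shift a description without a measured size, and with normexp correction (−0.41, −0.15 and −0.06) they were not called. In the separate comparisons, which rest on different lungs, 20 probes were higher at both ages (58.8% of the 34 at P5 and 69% of the 29 at P14) and 8 were lower at both (44.4% of 18 and 19% of 42). Over all probes tested the corresponding shares were 63.3% and 36.6% of those called higher, and 50.5% and 38.5% of those called lower. Called in opposite directions were 4 probes: both of Cyp2e1, 1 of Cyp2j8 (0.27 and −0.34) and the brighter one of Gstm3, which the array file places on chromosome 10.

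In the A34a lungs 85% O2 was compared with 21% O2 on lungs that the SCR comparison did not use, but on the same slides and in the same fit. A difference between slides would therefore enter both comparisons. At P5, 39 member probes were higher and 21 lower of 99, against 46.6% called among all probes, 17.2% as higher and 29.5% as lower. At P14, 34 were higher and 43 lower of 117, against 65.6%, with 27.8% as higher and 37.8% as lower. Over the members measured in both groups the balance at P14 was the other way: 32 (37.6%) of 85 were higher and 18 (21.2%) lower, beside 31.8% and 31.4% of all probes so measured, and at P5 35 (40.7%) of 86 were higher and 16 (18.6%) lower, beside 18.7% and 28.3%. Gsta3 differed by 1.63 and 1.29 at the respective ages, Gsta2 by 1.58 and 1.33, Gsto1 by 1.42 and 0.95, and Cyp2e1 by 1.73 and −4.68. Without A34a replicate 4 in 85% O2, the lung with the highest club and ciliated cell markers of its group, the P14 values were 1.16, 1.23, 0.81 and −4.86. Without the lung with liver transcripts, P5 A34a replicate 3, Cyp2e1 differed by 1.29 at P5. Among Gst probes measured in both groups, 22 were higher and 4 lower of 29 at P5, and 21 higher and 1 lower of 29 at P14. Among Cyp probes so measured, 9 were higher and 10 (20.8%) lower of 48 at P5, and 8 higher and 14 (29.8%) lower of 47 at P14. The lower share at P14 was not above the 31.4% of all probes so measured, nor were those of the Cyp2 (29.2%) and Cyp4 (27.3%) probes, whereas in the SCR lungs they were above the 27.5% of all probes; the difference between both sets of lungs in these shares was not tested. Of all called members at P14, 44.2% were higher, against 68.8% with normexp correction and 65.2% with quantile normalization.

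Among the probes kept by the filter, few members were called for antagomiR-34a. With SCR as the control, 0 of 99 member probes were called at P5 in 21% O2 (0.136% of all probes), 0 of 99 at P5 in 85% O2 (0.0639%), 0 of 117 at P14 in 21% O2 (0% of 38455 probes) and 1 of 117 at P14 in 85% O2 (2.66%) by limma. Without the filter on dim probes, 14 of 191 member probes (7.33%) were called at P5 in 85% O2, all higher with A34a, beside 7.69% of all probes; the filter kept 1 of these 14. At an unadjusted p under 0.05 the member probes numbered 16, 6, 7 and 8, or 16.2%, 6.06%, 5.98% and 6.84%, beside 17.4%, 13%, 10.5% and 16.7% of all probes tested. Welch's test of the study's methods called 0 member probes in all 4 comparisons after adjustment. The oxygen by antagomiR interaction was called on 0 member probes at P5 (0.0556% of all probes) and 0 at P14 (0.0884%), with 9 and 9 at an unadjusted p under 0.05 (9.09% and 7.69%, beside 10.9% and 15% of all probes). Each difference below is the A34a mean minus the SCR mean.

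The probe called at P14 in 85% O2 was the dimmer one of Cyp2e1, with a difference of −0.99 ± 0.18 (limma adjusted p = 0.0109), on 3 of 4 A34a arrays well above background, while the brighter one differed by −0.64 ± 0.33 (limma adjusted p = 0.36). With normexp correction, with a fit of the compared groups only or by Welch's test, 0 member probes were called in this comparison. Without A34a replicate 4 or without SCR replicate 1 in 85% O2, 2 member probes were called, the other being of Cyp2c67 in the former case and of Cyp2t4 (−0.51) in the latter. The smallest p-values elsewhere belonged to Ugt1a10 (−1.40 ± 0.30, limma adjusted p = 0.0756), Cyp2a4 (−1.13 ± 0.39, limma adjusted p = 0.188) and Cyp2b9 (−0.66 ± 0.24, limma adjusted p = 0.206, and 0.08 with normexp correction) at P5 in 21% O2, and to Cyp46a1 (0.41), Gstm2 (0.15) and Cyp2j6 (−0.23) at P5 in 85% O2. At P14 in 85% O2 they belonged to Cyp2d34 (−0.82), Cyp2t4 (−0.39) and Cyp4f41-ps (0.95). For the interaction they belonged to Ugt1a10 (1.20), Cyp2a4 (1.54) and Sult2b1 (0.51) at P5, and to Cyp2t4 (−0.59), Cyp2d34 (−0.92) and Cyp2c67 (−1.58) at P14.

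At P14 in 21% O2 the count of 0 depended on a pair of arrays. The 75th percentile of the SCR arrays was 10.1, 10.1, 10.2 and 9.34, and that of the A34a arrays 10.2, 9.61, 9.64 and 9.56. Gstt4 read −4.27, −4.29, −4.64 and −2.38 with SCR, and −4.35, −2.65, −2.54 and −2.46 with A34a. Ugt1a6a read −3.00, −2.86, −3.94 and −1.42 with SCR, and −2.95, −1.21, −1.40 and −1.25 with A34a. In brightness and in both genes, SCR replicate 4 lay with the A34a arrays and A34a replicate 1 with the SCR arrays.

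With both arrays left out, 12 member probes were called for A34a, among them Gstt4 (1.85 ± 0.19, limma adjusted p = 3.96e-05), Ugt1a6a (1.98 ± 0.25, limma adjusted p = 0.000173) and Cyp4a12a (2.48 ± 0.40, limma adjusted p = 0.000994) as higher and both Cyp4f18 probes (−0.50 and −0.54) and Cyp4f17 (−0.24) as lower. For the interaction 7 were called, all negative. These arrays were left out with their values known, and the dim probes named here moved along with the 75th percentile, so that the calls are a description. The shares of all probes called in these fits are not given here, so that neither count can be read as particular to the members. With only SCR replicate 4 left out, 1 member was called, Ugt1a6a (1.56). The 3 members with the smallest p-values over all 8 lungs were Cyp27b1, which activates vitamin D (0.95), Cyp4a12a (1.53) and Ugt1a6a (1.10), each at a limma adjusted p of 0.473.

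**Figure D4:**
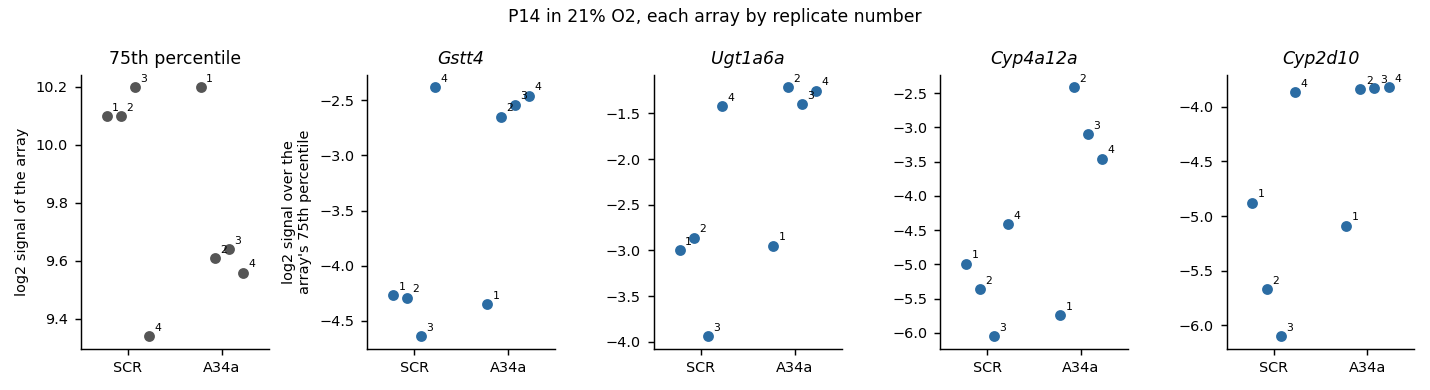
The 75th percentile of the log2 processed signal and the log2 relative signals of Gstt4, Ugt1a6a, Cyp4a12a and Cyp2d10 (vertical axes) on the 8 arrays of P14 lungs kept in 21% O2, by oligonucleotide (horizontal axis), each point carrying its replicate number. SCR replicate 4 lies with A34a replicates 2 to 4 in every panel but that of Cyp4a12a, where it lies between, and A34a replicate 1 lies with SCR replicates 1 to 3 in all panels.

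The genes that serve the 4 families were read from separate lists, counted by gene on the brightest probe in the SCR lungs at P5 and P14. They stand beside 17.5% higher and 26.4% lower over all probes at P5, with a median of −0.07, and 28.4% and 32.4% at P14, with a median of −0.06; lists this short are described and not tested. Cosubstrate supply, which makes and delivers glutathione, glucuronic acid and sulfate, had 4 of 10 genes higher against 3 lower at P5 (median 0.24), and at P14 5 higher and 1 lower (median 0.28), the lower share at P5 being near that of all probes. Gclc, the rate-limiting step of glutathione synthesis, was higher by 1.75 ± 0.12 at P5 and 1.86 ± 0.18 at P14. Glutathione synthetase (Gss) differed by 0.93 and 1.06, and glutathione reductase (Gsr) by 0.60 and 1.16. Slc35d1, which carries UDP-glucuronic acid into the endoplasmic reticulum, was higher by 2.13 ± 0.17 at P14 and not called at P5 (0.57). Ugdh, which makes UDP-glucuronic acid, went from −0.32 at P5 to 0.32 at P14, and the sulfate donor enzyme Papss2 differed by 0.20 and −0.10, the latter not called.

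Electron donors of the cytochromes had 4 of 8 genes higher against 1 lower at P5 (median 0.21), and at P14 5 higher and 0 lower (median 0.23). Por, the NADPH reductase shared by the microsomal cytochromes, differed by −0.15 at P5 (adjusted p = 0.136 by limma) and by 0.27 at P14 (limma adjusted p = 0.0378). Other phase I enzymes had 8 of 17 genes (47.1%) higher against 3 (17.6%) lower at P5, and at P14 7 (41.2%) higher and 4 (23.5%) lower, with medians of 0.28 and 0.24. Ephx1, the microsomal epoxide hydrolase, rose by 1.95 ± 0.08 and 1.70 ± 0.06, the aldo-keto reductase Akr1b8 by 1.66 and 2.36, and the aldehyde oxidase Aox1 by 1.54 and 1.53. The carboxylesterase Ces2e was higher by 2.88 ± 0.11 at P5 and differed by 0.29 at P14 (limma adjusted p = 0.197). Fmo1, a flavin monooxygenase, was lower by 0.73 ± 0.10 and 2.17 ± 0.18 (−0.73 and −2.17).

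Other phase II enzymes had 4 of 10 genes higher against 2 lower at P5 (median −0.08), and at P14 7 of 11 higher and 3 lower (median 0.45), with the microsomal transferases Mgst1 (0.76 and 0.67) and Mgst3 (0.65 and 0.62) higher at both ages. Export pumps had 6 of 7 genes higher against 0 lower at P5 (median 0.38), and at P14 4 higher and 1 lower (median 0.23), among them Abcc3 (0.82 and 1.20) and Abcb1b (1.09 and 0.91).

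On the AHR axis, 2 of 9 genes (22.2%) were higher against 0 lower at P5, and at P14 3 (33.3%) higher and 1 lower, with medians of −0.01 and 0.01, so that the higher shares lay near those of all probes. Nqo1, a quinone reductase driven by NRF2 as well as the AHR, was higher by 1.19 ± 0.07 at P5 (adjusted p = 3.12e-08 by limma) and by 2.12 ± 0.09 at P14 (limma adjusted p = 7.54e-10). Ahr itself differed by 0.14 at P5 (adjusted p = 0.232 by limma) and by −1.19 ± 0.10 at P14 (limma adjusted p = 4.35e-07). Its partner Arnt differed by −0.04 and 0.38, the latter called. The AHR targets Tiparp (0.50 and −0.20) and Ahrr (−0.03 and −0.16) gave 1 call, Tiparp at P5. Of 9 xenosensing nuclear receptor genes tested, 0 were higher against 1 lower at P5, and at P14 2 (22.2%) were higher and 3 (33.3%) lower, near the shares of all probes, and CAR (Nr1i3) differed by −1.49 ± 0.38 and Ppara by −1.31 ± 0.26.

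Markers of lung and other cells were read beside these results. The mean of 10 club cell markers ranged from 2.19 to 3.68 over the SCR lungs at P5 in 21% O2 and from 1.97 to 2.50 in 85% O2, and at P14 from 3.45 to 3.65 and from 2.30 to 3.09. The defining club cell gene Scgb1a1 read 8.13 to 8.31 and 7.85 to 8.36 at P5, and 8.53 to 8.73 and 8.84 to 9.26 at P14. In the P14 SCR lungs the means of all 10 marker lists, adipocyte and liver included, stood apart between the oxygen levels. Those of type II pneumocytes (5.57 to 5.63 in 21% O2, 5.10 to 5.45 in 85% O2), endothelium (3.94 to 4.02, 3.72 to 3.86), fibroblasts (3.24 to 3.36, 3.06 to 3.08), macrophages (2.15 to 2.74, 1.68 to 2.14) and skeletal muscle (−3.67 to −1.76, −4.34 to −4.05) were lower in 85% O2. Those of type I pneumocytes (4.07 to 4.13, 4.19 to 4.23) and ciliated cells (0.66 to 0.80, 0.82 to 1.24) were higher. At P5 the lists that stood apart were those of type I pneumocytes, higher in 85% O2 (3.36 to 3.62, 3.75 to 3.83), and of fibroblasts (2.92 to 3.50, 2.66 to 2.76) and adipocytes (−4.80 to −3.64, −5.42 to −5.24), both lower. In the A34a lungs at P14, the lists of type II pneumocytes (5.49 to 5.62, 5.17 to 5.47), endothelium (3.86 to 3.96, 3.71 to 3.81), adipocytes (−2.01 to 1.00, −5.64 to −2.23) and liver (−4.34 to −2.97, −5.73 to −4.87) were lower in 85% O2 without overlap, and that of ciliated cells (0.43 to 0.60, 0.73 to 1.87) was higher. Replicate 4 in 85% O2 stood apart there, with club cell markers at 4.14 against 2.25 to 2.56, ciliated cell markers at 1.87 against 0.73 to 1.04 and adipocyte markers at −2.23 against −5.64 to −5.25. In the A34a lungs at P5, macrophage (1.05 to 1.30, 1.61 to 1.85) and type I pneumocyte markers (3.61 to 3.67, 3.85 to 3.94) were higher in 85% O2, and endothelial (3.72 to 3.81, 3.65 to 3.71) and fibroblast markers (2.88 to 3.08, 2.75 to 2.84) lower. The part of cell make-up in the Gst and Cyp differences was not tested.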

How the data were processed

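RNA of 32 lungs was hybridised to single-colour Agilent arrays, 1 array for each mouse. The authors deposited scanner output of Agilent Feature Extraction (version 10.7.3.1, from the file headers), and the intensity used was its processed signal, already background-subtracted. The authors' table of log2 values served as an alternative. Probe positions are those of the array file (mm9); an exon annotation of that build was not used here.

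The log2 intensity of each array was centred on its 75th percentile, without control spots and outlier-flagged spots, and spots of a probe were averaged. Tests covered probes that all 4 lungs of some group in the fit showed well above background, with limma 3.58.1 in R 4.3.3, with 1 mean per group (16 arrays per age, 32 where ages were compared), in 12 comparisons, at a Benjamini-Hochberg adjusted p under 0.05 over all tested probes. Welch's test from the study's methods was an alternative, as were normexp correction (offset 50), quantile normalization, no filter, the replicate number as a block, fits on the compared groups only, and leaving out each array. The number of arrays limits the precision.

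A gene was represented by its brightest tested probe. Genes were named when called without overlap of the groups (up to 10 in each direction, by size), or by the 3 smallest p-values for antagomiR, beside a set of 17 usual members and 9 partner genes. Where a probe was well above background on no array of a group, the fold is a lower bound on the difference of group means, without normexp correction. The members, gene lists and tests were chosen with earlier results of these data known. The tests were tested on simulated data.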

Additional observations from a re-analysis of the deposited data

Results flagged for a closer look

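Over the named members, 17 of 300 groups of 4 lungs held a value that stood off from the other 3 by more than Dixon's critical value, where chance gives about 1 in 20. In lungs of the SCR groups these were Cyp2e1 at −1.04 (P5, 85% O2, replicate 4), Gstm3 at 0.48 and Gstp1 at 2.63 (P5, 85% O2, replicate 1), Cyp4b1 at 3.20 (P14, 85% O2, replicate 3), Gstm6 at −3.27 (P14, 85% O2, replicate 1) and Gstt4 at −2.38 (P14, 21% O2, replicate 4). In the A34a groups they were Cyp2e1 at 0.12 (P5, 85% O2, replicate 3), Gsta3 at 4.39 (P14, 85% O2, replicate 4), Sult1a1 at 2.13 and Cyp7b1 at −0.81 (P5, 21% O2, replicate 3) and Cyp2j6 at −1.51 (P5, 21% O2, replicate 4). At P14 in 21% O2 with A34a they were Ugt1a6b at 1.93 (replicate 3), Gsta4 at 0.11 (replicate 2), Cyp2j6 at −1.01 (replicate 4), and Ugt1a6a at −2.95, Cyp7b1 at −0.90 and Gstt4 at −4.35 (all replicate 1). The Gsta4 group differed by no more than rounding, with the other 3 lungs at 0.10.

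The oxygen difference of 7 named members was past the threshold for a difference between P5 and P14 by a limma interaction term in the SCR lungs. It was −5.50 for Cyp2e1, −2.23 for Cyp2c44, −1.76 for Cyp2d22, −1.48 for Cyp27a1, 1.74 for Cyp2t4, 1.48 for Cyp17a1 and 1.37 for Cyp21a1 on the log2 scale. The fit also passed the threshold for Gstt4 (−3.34), Cyp4f14 (−2.88) and Cyp4a12a (−2.63), but these probes passed the filter only at P14 in 21% O2 and their other means are readings near background, so that the fitted values are no measured sizes, and with normexp correction (−0.41, −0.15 and −0.06) they were not past the threshold. Age cannot be told apart from slide and scan batch.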

How the results depend on the processing

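The mice of equal replicate number were not paired: same-number correlations of deviations ran from −0.31 to 0.53. With the replicate number as a block, member calls for oxygen numbered 48 (P5 SCR), 67 (P14 SCR), 58 (P5 A34a) and 75 (P14 A34a), 0, 0, 0 and 1 for antagomiR, 0 and 0 for its interactions, 63 for age and 49 for age by oxygen.

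Of 211 alternative counts of called members, 201 stayed within 1.5 times the reported count. Of the 10 exceptions, 7 came from another processing or choice of arrays: 48 for oxygen at P14 in A34a lungs with normexp correction, 14 for antagomiR at P5 in 85% O2 without a filter, 0 for antagomiR at P14 in 85% O2 with normexp correction, with the compared groups only and with Welch's test, and, with both P14 arrays in 21% O2 that stood apart left out, 12 for antagomiR and 7 for the interaction. The others each left out 1 array, with 1 call for antagomiR at P14 in 21% O2 (SCR replicate 4) and 2 at P14 in 85% O2 (A34a replicate 4 or SCR replicate 1). Without each array in turn, calls ranged from 43 to 52 (oxygen, P5 SCR), 62 to 70 (P14 SCR), 52 to 66 (P5 A34a), 72 to 76 (P14 A34a), 55 to 65 (age) and 41 to 48 (age by oxygen), and were 0 to 1 for antagomiR at P14 in 21% O2, 1 to 2 at P14 in 85% O2 and 0 to 0 in the other antagomiR comparisons and interactions.

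Of 2367 alternative values of named genes, these turned direction: Cyp2c29 at P14 to 0.09 with normexp correction, Gstt1 at P14 to −0.15 with quantile normalization, −0.16 in the authors' table and between −0.01 and 0.13 with 1 array left out, Cyp2b9 (antagomiR, P5, 21% O2) to 0.08 with normexp correction, and, with 1 array left out, Cyp1b1 at P5 (−0.09 to 0.37) and Cyp2b10 at P14 (−0.11 to 0.03). The cause was not tested. Dim probes near background are the least certain.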
